A study of Rattus norvegicus with 6 samples.

Results

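The 35 genes described here encode aminoacyl-tRNA synthetases, the enzymes that load each amino acid onto its tRNA. They were chosen by symbol: 19 encode cytosolic enzymes and 16 encode mitochondrial ones, with Gars1, Kars1, Qars1 and Eprs1 counted as cytosolic. Probes on the array matched 31 of the 35 genes by accession, out of 15284 gene symbols with a probe, and no probe was matched here to Gars1, Iars2, Lars2 or Mars2. All 31 were well above background on every array and were tested, 18 cytosolic and 13 mitochondrial.

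The measured tissue was renal cortex from 6 male Sprague-Dawley rats, bought at 5 weeks of age and each hybridised to its own 1-colour Agilent array. Anthraquinone, a tricyclic aromatic quinone, was given to 3 rats at 1000 mg/kg/day for 4 weeks. The other 3 rats received corn oil for the same 4 weeks. Housing and basal diet were shared by both groups. The design text calls the 3 animals of a group biological replicates. A p-value here therefore rests on how much these animals and their single arrays varied, with a variance that limma moderates over all entries. Having 6 arrays limits the precision.

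Vertebrate cells keep separate sets of these enzymes for the cytosol and for the mitochondrion, both encoded in the nucleus. Several of the cytosolic enzymes are bound together in the multisynthetase complex, while the others work free of it. When charged tRNA runs short, the kinase encoded by Eif2ak4 (Gcn2) phosphorylates the initiation factor eIF2 and translation of the transcription factor encoded by Atf4 goes up. Many cytosolic synthetase genes are known targets of that factor in mammalian cells, through amino acid response elements near their start sites.

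Values are log2 processed intensity minus the 75th percentile of the same array, and differences are anthraquinone minus corn oil with the SE from limma. The 75th percentile intensity was 844 to 880 on the anthraquinone arrays and 903 to 1191 on the corn oil arrays. Between 64.2 and 66.1% of probes were well above background on the anthraquinone arrays, against 68.7 to 70.7% on the corn oil arrays. Correlations between arrays were 0.991 to 0.993 within anthraquinone, 0.993 to 0.994 within corn oil and 0.988 to 0.993 between the groups. All 9 proximal tubule markers, the main epithelium of the cortex, were tested, and their median difference was 0.09, with 7 positive. Its sign depended on the scaling: with quantile normalization the median was -0.08, with 0 positive. Corn oil replicate 1 was alone on its slide. On the other slide the anthraquinone arrays lay in row 2 and the remaining corn oil arrays in row 1.

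Messages for cytosolic synthetases were mostly higher in anthraquinone cortex by a small amount, and mitochondrial ones were mixed. The median difference was 0.26 over 18 cytosolic genes (range -0.13 to 0.80) and 0.13 over 13 mitochondrial genes (range -0.15 to 0.30), beside 0.01 over all 32663 gene entries and unnamed probes tested. The cytosolic difference was positive in 16 of 18 genes and the mitochondrial one in 8 of 13, where 51.6% of all entries were positive. No synthetase passed limma's test at an adjusted p of 0.05. Only 0.0276% of all entries passed it (9 entries), 0.0153% as higher and 0.0122% as lower. The lowest adjusted p among the synthetases was 0.205, for Farsa.

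At an unadjusted limma p under 0.05, and on the brightest probe of each gene, 9 of 31 synthetases were higher and 0 were lower, where the same rule called 9.47% of all entries higher and 7.65% lower, 17.1% in either direction. They were 7 of 18 cytosolic genes (38.9%) and 2 of 13 mitochondrial genes (15.4%). The count of 9 varied when 1 animal was left out. It was 6, 9 and 3 without anthraquinone replicates 1, 2 and 3, and 5, 2 and 3 without corn oil replicates 1, 2 and 3. The share of all entries in either direction moved too, from 17.1% to 18.4, 12.5 and 12.4%, and to 14.2, 12.4 and 13.5%, in the same order. A smaller group also weakens the test, and the 2 effects were not separated. The count was 0 with the row on the slide as a term, where the share of all entries was 11.1%. The 3 anthraquinone values all lay above the 3 corn oil values in 17 of 31 synthetases, 11 cytosolic and 6 mitochondrial, against 15.0% of all entries. On the brightest probe they all lay below in no synthetase, against 10.2% of all entries. When the probes of a gene were averaged, 4 of 31 were higher and 1 lower at an unadjusted limma p under 0.05. The share of all entries in either direction was then 17.2%, so the synthetases were called no more often than all entries. The anthraquinone values lay all above in 12 and all below in 3 with averaged probes. These shares describe a list of genes that were chosen with results of these animals known, and no test of the list was made.

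**Figure D1:**
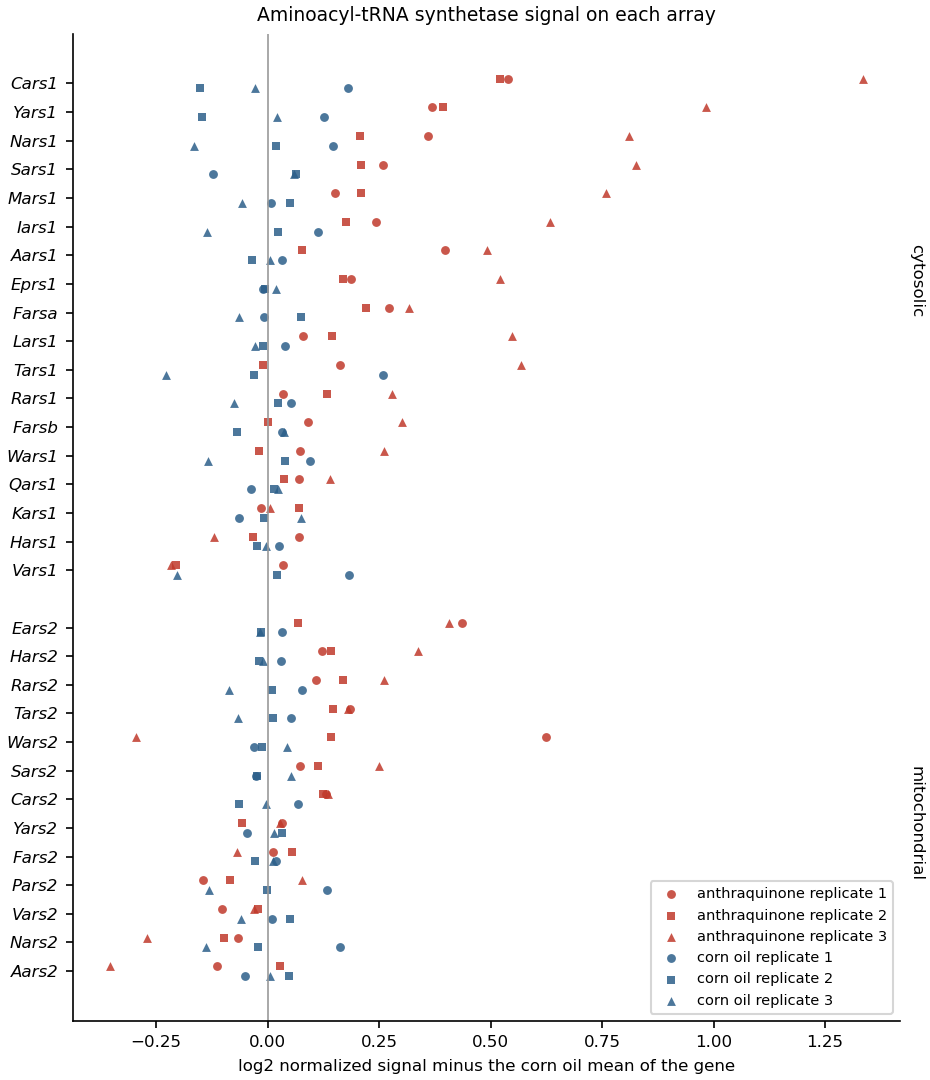
Each point is 1 array: log2 normalized signal (x axis) of each of 31 synthetase genes (y axis) minus the gene's corn oil mean, anthraquinone in red above corn oil in blue, with the marker shape giving the replicate number. Anthraquinone replicate 3 (red triangles) was the highest anthraquinone array in 15 of 18 cytosolic genes, and it was the highest in 5 and the lowest in 4 of 13 mitochondrial genes.

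One animal carried much of the cytosolic difference. Anthraquinone replicate 3 was the highest of its group in 15 of 18 cytosolic genes, replicate 1 in 2 and replicate 2 in 1, whereas among mitochondrial genes replicates 1, 2 and 3 were highest in 5, 3 and 5 genes. The median deviation of the cytosolic genes from their corn oil mean was 0.16, 0.14 and 0.51 on anthraquinone arrays 1, 2 and 3, against 0.03, 0.0041 and -0.03 on corn oil arrays 1, 2 and 3. Every anthraquinone array was above every corn oil array, and the third was more than 3 times as far up as the other two. Without anthraquinone replicate 3 the cytosolic median difference was 0.15 and each of the 7 cytosolic genes at an unadjusted p under 0.05 had a smaller difference. For the mitochondrial genes the median deviations were 0.07, 0.07 and 0.08 on the anthraquinone arrays and 0.03, -0.01 and -0.01 on the corn oil arrays, so no animal stood apart there. The mitochondrial median difference was nonetheless -0.0047 without anthraquinone replicate 1.

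The promoters of the cytosolic genes often held the motif TTGCATCA, the form of the amino acid response element known from Ddit3, which is the binding sequence of heterodimers that include the Atf4 protein. RefSeq promoter windows of the GRCr8 build, running from 250 bases before to 50 after the gene start, were at hand for 33 of the 35 genes, 17 cytosolic and 16 mitochondrial (all but Gars1 and Rars1). On either strand, TTGCATCA (reverse complement TGATGCAA) was found in 7 of 17 cytosolic windows (41.2%) and in 0 of 16 mitochondrial windows. It was held by 0.827% of all 27457 symbols with a window. The windows of these 7 genes are printed 5′ to 3′ on the strand of the gene, with up to 25 bases on each side and the motif in capitals, because they mark out the cytosolic genes whose values are given next.

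Aars1, chr19:55908345-55908402 (+): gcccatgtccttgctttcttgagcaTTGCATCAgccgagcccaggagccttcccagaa

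Cars1, chr1:208225320-208225377 (-): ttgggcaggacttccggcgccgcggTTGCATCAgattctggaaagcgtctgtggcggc

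Iars1, chr17:15193644-15193701 (-): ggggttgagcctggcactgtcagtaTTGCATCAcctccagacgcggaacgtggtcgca

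Mars1, chr7:65023738-65023795 (-): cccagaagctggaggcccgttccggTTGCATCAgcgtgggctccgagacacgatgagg

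Nars1, chr18:60275764-60275821 (-): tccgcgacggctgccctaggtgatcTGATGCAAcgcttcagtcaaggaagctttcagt

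Tars1, chr2:62114797-62114854 (-): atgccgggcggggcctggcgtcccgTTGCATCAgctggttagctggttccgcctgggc

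Yars1, chr5:146820176-146820212 (+): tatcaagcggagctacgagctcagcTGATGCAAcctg

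The motif began 14 to 27 bases before the gene start in Nars1, Mars1, Iars1 and Tars1, and 112 bases before it in Aars1. It began 17 bases after the start in Cars1 and 38 after it in Yars1. Nars1 and Yars1 carried it in the reverse orientation. The wider core TGATGNAA, of which TTGCATCA is a special case on the other strand, was found in the same 7 cytosolic genes and no mitochondrial gene, against 4.16% of all symbols. A match is a description of letters and not of a bound site.

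The cysteine enzymes gave the widest contrast between compartments in difference, and their whole windows are shown for that reason. The Cars1 window is chr1:208225320-208225619 (-) and the Cars2 window is chr16:84651857-84652156 (+), with TTGCATCA in capitals where it occurs.

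Cars1: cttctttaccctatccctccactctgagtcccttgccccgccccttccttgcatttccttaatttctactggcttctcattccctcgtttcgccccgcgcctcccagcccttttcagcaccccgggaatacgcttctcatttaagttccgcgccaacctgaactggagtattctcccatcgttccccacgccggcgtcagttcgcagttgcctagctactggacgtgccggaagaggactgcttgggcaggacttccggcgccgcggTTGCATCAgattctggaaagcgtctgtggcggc

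Cars2: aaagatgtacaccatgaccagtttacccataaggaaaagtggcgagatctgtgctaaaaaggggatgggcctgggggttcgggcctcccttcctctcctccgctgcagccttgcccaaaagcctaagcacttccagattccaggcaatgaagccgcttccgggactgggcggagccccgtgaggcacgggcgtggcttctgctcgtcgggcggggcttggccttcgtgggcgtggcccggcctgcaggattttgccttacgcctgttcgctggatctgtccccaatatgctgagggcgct

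Over the 7 cytosolic genes with TTGCATCA the median difference was 0.37 (range 0.24 to 0.80), with 7 positive, 5 at an unadjusted limma p under 0.05 and 6 whose groups did not overlap. Over the 10 cytosolic genes whose window lacked it the median was 0.12 (range -0.13 to 0.43), with 8 positive, 2 at an unadjusted p under 0.05 and 5 whose groups did not overlap. All of these called or non-overlapping genes were higher. Of all entries, 51.6% were positive, 9.47% were higher at that p and 15.0% had anthraquinone values all above. Rars1, which had no window, had a difference of 0.15. Without anthraquinone replicate 3 the medians were 0.24 with the motif (range 0.0754 to 0.53) and 0.05 without it (range -0.0852 to 0.25). The ranges of both sets overlap, and genes are not replicates, so no test was made.

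**Figure D2:**
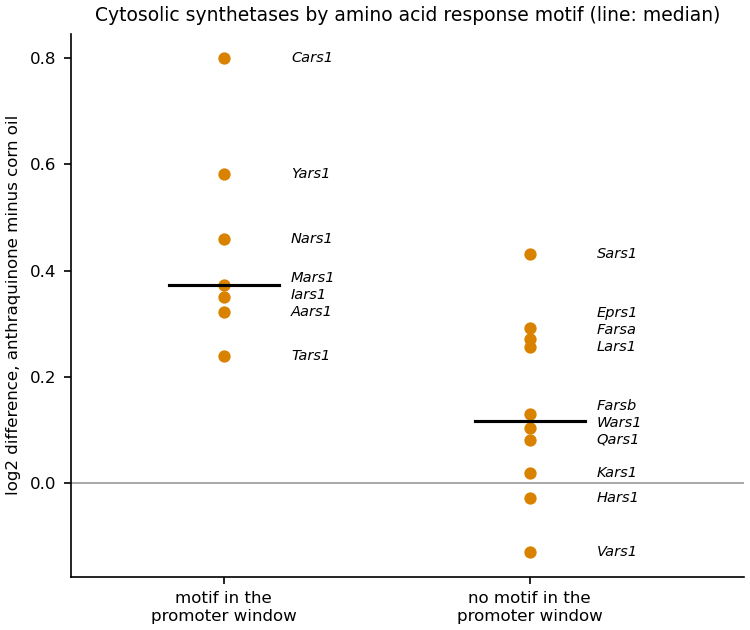
The y axis gives the log2 difference, anthraquinone minus corn oil, of 17 cytosolic synthetase genes, split on the x axis by whether TTGCATCA occurs in the 300-base promoter window. Lines are medians (0.37 with the motif, 0.12 without), and Sars1 is the highest gene without a match.

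Of the 7 tested enzymes of the multisynthetase complex, all had a positive difference (median 0.26, range 0.02 to 0.37), 2 had an unadjusted limma p under 0.05 (28.6%, against 9.47% of all entries called higher) and 5 had groups that did not overlap (71.4%, against 15.0%). Eprs1, which charges tRNA with glutamate and with proline, had 3.81, 3.79 and 4.14 on anthraquinone arrays 1, 2 and 3, against 3.61, 3.61 and 3.64 on corn oil arrays 1, 2 and 3. All of its anthraquinone values were above the tightly grouped corn oil values, with the third well above the other two. Its difference was 0.29 ± 0.11 (SE, n = 3 each), with a limma adjusted p of 0.268, and its other probe gave 0.27.

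Iars1, the isoleucine enzyme, had 2.32, 2.25 and 2.71 in anthraquinone cortex and 2.19, 2.10 and 1.94 in corn oil cortex. Its groups did not overlap, though the gap between the nearest values was small. The difference was 0.35 ± 0.14 (SE, n = 3 each, limma, adjusted p = 0.290), and its other probe gave only 0.09 with overlapping groups. Mars1, which charges methionine tRNA for both initiation and elongation in the cytosol, had a difference of 0.37 ± 0.17 (limma, adjusted p = 0.325), and its other probe gave 0.35. Its groups did not overlap on either probe.

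Among the remaining enzymes of the complex, Lars1 (leucine), which is also known as a leucine sensor for the mTORC1 kinase, had a difference of 0.26, with 0.21 on its other probe. Rars1 (arginine) had 0.15 and 0.14 on its probes, and Qars1 (glutamine) 0.08 and -0.03. Kars1 (lysine), which in humans serves both the cytosol and the mitochondrion, had 0.02 on its brightest probe and -0.0038 and 0.0026 on the others. The 95% intervals of these 4 genes all included 0, as did that of Mars1 (-0.04 to 0.79). Without anthraquinone replicate 3 the differences were 0.18 for Eprs1, 0.21 for Iars1, 0.18 for Mars1 and 0.11 for Lars1. For Kars1 the 95% interval ran from -0.16 to 0.20.

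The 11 tested cytosolic enzymes that work outside the complex had a median difference of 0.27 (range -0.13 to 0.80). Of these, 9 were positive, 5 were higher at an unadjusted limma p under 0.05 (45.5%, against 9.47%) and 6 had groups that did not overlap (54.5%, against 15.0%). Cars1, the cysteine enzyme, had the highest difference of any synthetase. It had 0.17, 0.15 and 0.96 on anthraquinone arrays 1, 2 and 3, against -0.19, -0.52 and -0.40 on corn oil arrays 1, 2 and 3. Its anthraquinone replicate 3 was far above the other two, which were themselves above all corn oil arrays. The difference of 0.80 ± 0.24 (SE, n = 3 each) is 1.74-fold, with a 95% interval of 0.22 to 1.38 and a limma adjusted p of 0.215. Its other probe gave 0.69, and without anthraquinone replicate 3 the difference was 0.53.

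Yars1, the tyrosine enzyme, had 0.37, 0.39 and 0.98 in anthraquinone cortex and 0.13, -0.15 and 0.02 in corn oil cortex. The same animal was again the highest, and the groups did not overlap. Its difference was 0.58 ± 0.18 (SE, n = 3 each), or 1.5-fold, with an interval of 0.13 to 1.03 and a limma adjusted p of 0.225. Only 1 probe of Yars1 was measured. Without anthraquinone replicate 3 the difference was 0.38.

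Nars1, which charges asparagine, had -0.09, -0.24 and 0.36 on the anthraquinone arrays and -0.30, -0.43 and -0.61 on the corn oil arrays. The nearest values of its groups were close to each other, and replicate 3 of the anthraquinone group was alone above 0. The difference was 0.46 ± 0.17 (SE, n = 3 each, limma, adjusted p = 0.267), with 0.36 on its other probe. It was 0.28 without anthraquinone replicate 3.

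Aars1, the alanine enzyme, had 4.61, 4.29 and 4.70 in anthraquinone cortex and 4.24, 4.17 and 4.21 in corn oil cortex. Unlike Cars1, Yars1 and Nars1, it had anthraquinone replicate 1 close to replicate 3, with replicate 2 only just above the corn oil arrays. Its difference was 0.32 ± 0.12 (SE, n = 3 each, limma, adjusted p = 0.260), and its other probe gave 0.31. Farsa, the catalytic subunit of the phenylalanine enzyme, had 3.45, 3.40 and 3.49 in anthraquinone cortex and 3.17, 3.25 and 3.11 in corn oil cortex. Here the 3 anthraquinone animals were close together and all above the corn oil animals. The difference was 0.27 ± 0.07 (SE, n = 3 each, limma, adjusted p = 0.205), but the other probe of Farsa gave 0.02 with overlapping groups. Farsb, which encodes the partner subunit, had 0.13 on its brightest probe and 0.08 and 0.11 on the others.

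Sars1, the serine enzyme, which also loads the selenocysteine tRNA, had a difference of 0.43 ± 0.18 (SE, limma, adjusted p = 0.293). Its other probe gave 0.39, and the groups did not overlap on either. Without anthraquinone replicate 3 the difference was 0.23. Tars1 (threonine), the lowest of the genes with the motif, had a difference of 0.24 ± 0.19 with overlapping groups, and its other probes gave 0.23 and 0.13. It was 0.0754 without anthraquinone replicate 3.

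Wars1, the tryptophan enzyme, which interferon induces in many cells, depended on the probe. Its brightest probe gave 0.10 with overlapping groups, and the others gave 0.46 with groups that did not overlap (limma, adjusted p = 0.211 over all passing probes) and 0.30. Hars1 (histidine) gave -0.03 and, on its other probe, -0.14, where all anthraquinone values were below all corn oil values. Vars1 (valine) had -0.13 on its only probe, the lowest difference of a cytosolic enzyme, with an interval of -0.44 to 0.18.

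**Figure D3:**
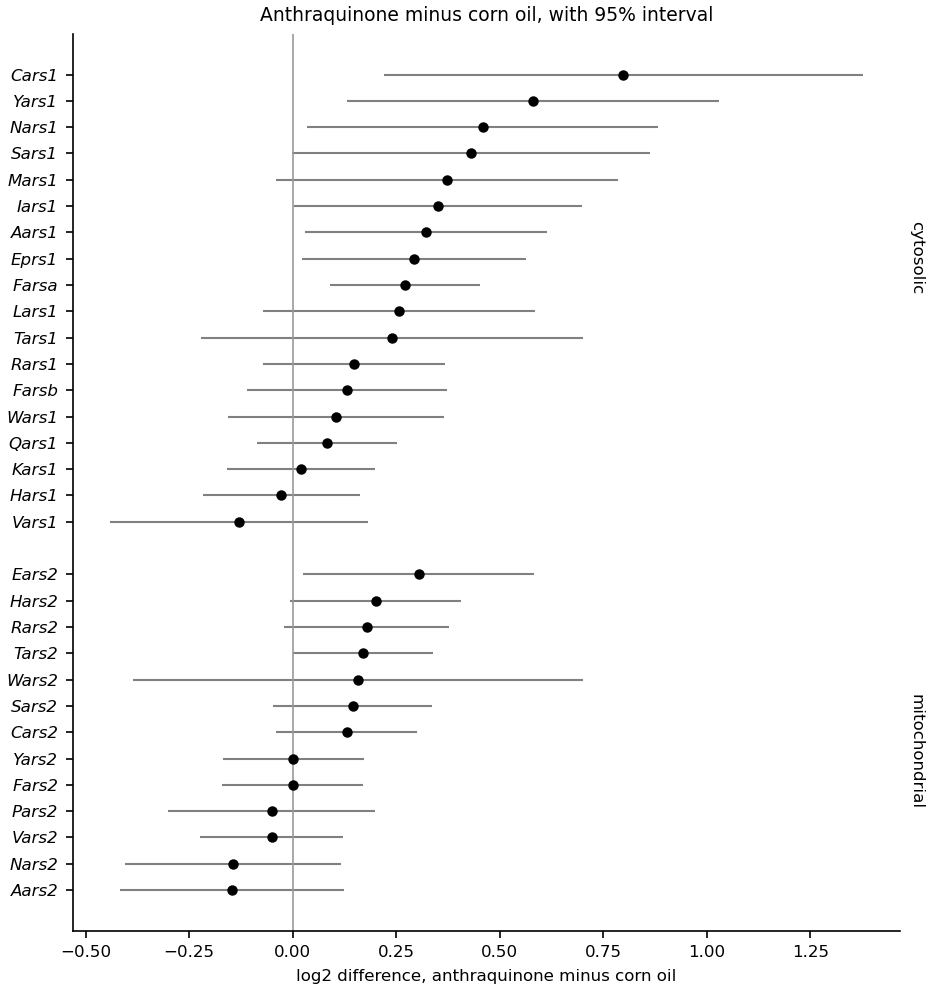
Points are log2 differences, anthraquinone minus corn oil, of the brightest probe of each of 31 synthetase genes, and bars are 95% intervals from limma with 3 animals in each group. The cytosolic differences reach 0.80 (Cars1) and the mitochondrial ones end at 0.30 (Ears2).

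In the mitochondrial set, 6 of 13 genes had all anthraquinone values above all corn oil values (46.2%, against 15.0% of all entries) and 2 were higher at an unadjusted limma p under 0.05 (15.4%, against 9.47%). Ears2, the mitochondrial glutamate enzyme, had 0.06, -0.31 and 0.03 on anthraquinone arrays 1, 2 and 3, against -0.35, -0.39 and -0.40 on corn oil arrays 1, 2 and 3. Its anthraquinone replicate 2 was close to the corn oil animals and the other two were clearly above them. The difference was 0.30 ± 0.12 (SE, n = 3 each, limma, adjusted p = 0.265), while its other probes gave 0.27, -0.21 and -0.09, so its direction depended on the probe. The groups did not overlap on the probe at 0.27. Both probes with a negative difference were dim, with values of -4.93 to -4.31 and -5.77 to -4.58, and their groups overlapped.

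Tars2, the mitochondrial threonine enzyme, had 4.19, 4.15 and 4.19 in anthraquinone cortex and 4.06, 4.02 and 3.94 in corn oil cortex. Both groups were tight and did not overlap. The difference was 0.17 ± 0.07 (SE, n = 3 each, limma, adjusted p = 0.291), with 0.08 and 0.02 on its other probes. Hars2 (histidine) had 0.20, Rars2 (arginine) 0.18, Sars2 (serine) 0.14 and Cars2 (cysteine) 0.13, each with groups that did not overlap. The other probe of Sars2 gave 0.11.

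The other 7 mitochondrial genes had overlapping groups on their brightest probe. Wars2 (tryptophan) had -0.35, -0.83 and -1.27 on the anthraquinone arrays and -1.0, -0.98 and -0.93 on the corn oil arrays, a spread in the anthraquinone group with values on both sides of the corn oil animals. Its probes gave 0.16 and -0.16. Yars2 (tyrosine) had 0.0012, Fars2 (phenylalanine) -0.00038, Vars2 (valine) and Pars2 (proline) -0.05 each, Nars2 (asparagine) -0.14 and Aars2 (alanine) -0.15. Further probes gave -0.0519 for Fars2, -0.12 and -0.13 for Pars2 and -0.14 for Aars2. The other probe of Nars2 gave -0.33 (limma, adjusted p = 0.205 over all passing probes), with all anthraquinone values below all corn oil values.

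Where a gene had 2 or more passing probes, 20 of 24 synthetases had the same sign on all of them. The 4 with both signs were Ears2, Kars1, Qars1 and Wars2. The mitochondrial median depended on this choice: when the probes of a gene were averaged in place of taking the brightest it was 0.0012, where the cytosolic median was 0.23.

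Amino acids with an enzyme in each compartment allow the sets to be matched. In 9 of 14 pairs the cytosolic enzyme had the larger difference (Fars2 and Eprs1 each stand in 2 pairs). Cars1 had 0.80 and Cars2 0.13, Nars1 0.46 and Nars2 -0.14, and Yars1 0.58 and Yars2 0.0012. Aars1 had 0.32 and Aars2 -0.15. The pairs for arginine, valine, tryptophan and histidine, and that of Eprs1 with Ears2, went the other way. The widest of these was histidine, with -0.03 for Hars1 and 0.20 for Hars2, genes whose promoter windows on opposite strands share 243 bases.

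**Figure D4:**
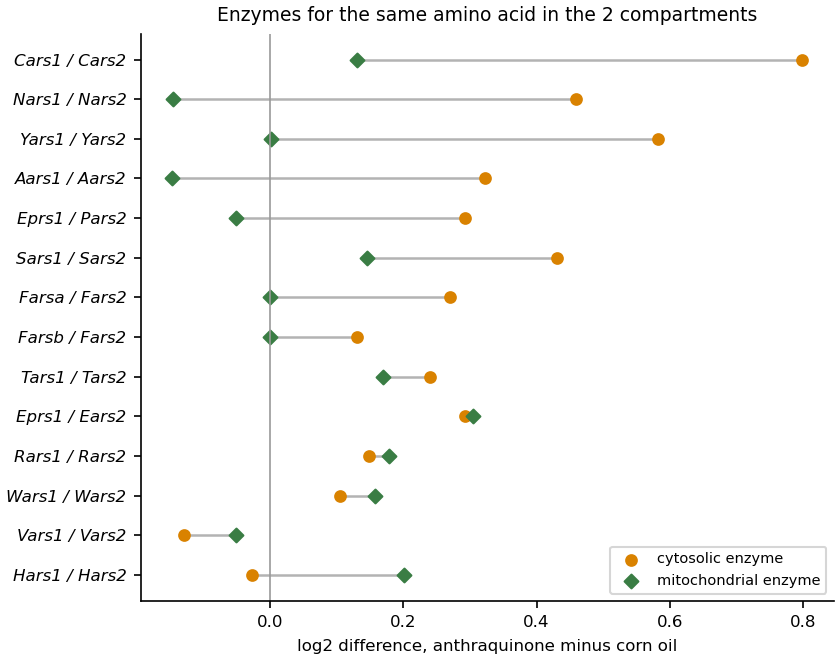
For each of 14 pairs of enzymes for the same amino acid (y axis), the log2 difference, anthraquinone minus corn oil (x axis), of the cytosolic gene (orange circle) and the mitochondrial gene (green diamond). The cytosolic gene is to the right in 9 pairs, with the widest gap for Cars1 and Cars2.

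The cytosolic median difference minus the mitochondrial one was 0.13. By array, the same contrast of median deviations was 0.08, 0.07 and 0.43 on anthraquinone arrays 1, 2 and 3, against 0.0050, 0.02 and -0.02 on corn oil arrays 1, 2 and 3. The third anthraquinone animal was again far from the other two, and without it the contrast of median differences was 0.05. It was 0.29 without anthraquinone replicate 1 and 0.20 without replicate 2.

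The synthetases also fall into classes by the fold of their catalytic domain. The 15 tested class I enzymes had a median difference of 0.16, with 13 positive and 4 at an unadjusted limma p under 0.05. The 15 tested class II enzymes had a median of 0.14, with 10 positive and 4 at that p. In each class all 4 were higher (26.7%, against 9.47% of all entries). Of all entries, 51.6% were positive. Eprs1, which joins an enzyme of each class in a single protein, was left out of both.

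Genes that act with the synthetases were described in the same way. Other genes of tRNA charging and handling, 10 tested of 16 listed, had a median difference of 0.01 with none at an unadjusted limma p under 0.05, and the largest difference was 0.10, for Aarsd1. Of the 3 scaffold genes of the multisynthetase complex, Aimp1 had 0.34 (limma, adjusted p = 0.233) and the median was 0.15. Of 8 genes listed as elongation factors, 3 were higher at an unadjusted limma p under 0.05 (37.5%, against 9.47% of all entries). These were Tufm, the mitochondrial factor that brings charged tRNA to the ribosome, with 0.32, Eef2 with 0.22 and Eef1g with 0.18. The list also held Eef1e1 (-0.09), a scaffold gene already counted above rather than an elongation factor. The median of the list was 0.14, with 7 positive. With quantile normalization its median was 0.0143, with 4 positive and 0 higher or lower at an unadjusted limma p under 0.05. With normexp background correction and quantile normalization its median was 0.0033, with 4 positive and 1 higher at that p.

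A list of 12 genes covered the sensing of amino acid shortage together with eIF2 and its phosphorylation. It also held the other eIF2 kinases, Eif2ak1, Eif2ak2 and Eif2ak3. Of the 12, 5 were higher and 1 lower at an unadjusted limma p under 0.05 (41.7% and 8.33%, against 9.47% and 7.65% of all entries). None passed the adjusted test. Atf4 had 4.75, 4.76 and 5.42 on anthraquinone arrays 1, 2 and 3, against 4.58, 4.47 and 4.34 on corn oil arrays 1, 2 and 3. As with Cars1 and Yars1, its anthraquinone replicate 3 was well above the others. Its difference was 0.51 ± 0.20 (SE, n = 3 each, limma, adjusted p = 0.272), and 0.29 without anthraquinone replicate 3. Ppp1r15a, a subunit of the phosphatase that reverses eIF2 phosphorylation, had 0.43, and Gcn1, which activates the sensor kinase, had 0.30. Eif2ak4, the sensor kinase, had -0.25 ± 0.10 (limma, adjusted p = 0.281), with all anthraquinone values below all corn oil values.

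A list of 23 tested ATF4 target genes other than synthetases had a median difference of 0.38, with 14 higher and 0 lower at an unadjusted limma p under 0.05 (60.9% higher, against 9.47% of all entries) and none past the adjusted test. Nupr1 had a difference of 2.67, Asns 2.41, Pycr1 2.13 and Trib3 1.78. These were 1.98 for Nupr1, 1.81 for Asns, 1.30 for Pycr1 and 0.92 for Trib3 without anthraquinone replicate 3. Fgf21, one of the 14, passed the filter only through the anthraquinone arrays, being above background on 1 of 3 corn oil arrays. Its fitted difference of 3.74 (2.43 without anthraquinone replicate 3) therefore has no measured corn oil level behind it on the other two. The median deviation of this list was 0.29, 0.30 and 0.67 on anthraquinone arrays 1, 2 and 3, against -0.05, -0.0012 and 0.08 on corn oil arrays 1, 2 and 3. Anthraquinone replicate 3 was highest for this list as it was for the cytosolic synthetases. A part of Atf4 in the synthetase differences was not tested.

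**Figure D5:**
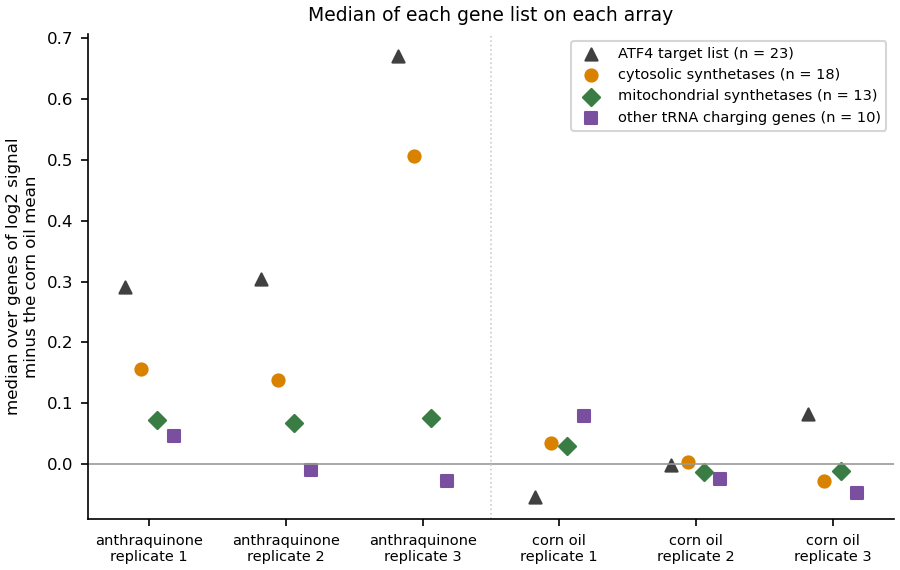
The y axis gives the median over the genes of a list of the log2 signal minus the corn oil mean of each gene, on each of 6 arrays (x axis). Cytosolic synthetases and the ATF4 target list are highest on anthraquinone replicate 3 (0.51 and 0.67), the mitochondrial synthetases lie between 0.07 and 0.08 on all anthraquinone arrays, and the other tRNA charging genes lie near 0.

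Other motifs were also looked for in the same windows on both strands. The ETS and GABP core ACTTCCG was in 7 of 17 cytosolic (41.2%) and 4 of 16 mitochondrial windows (25.0%), against 6.97% of all symbols. The antioxidant response element core TGACNNNGC was in 23.5% of cytosolic and 18.8% of mitochondrial windows, against 13.1%. GCATGCGC, the NRF1 core, was in 0 cytosolic and 2 mitochondrial windows (12.5%), against 2.77%, and CCAAT was in 58.8% and 37.5%, against 39.6%. TTGCATCA was in 4 of 23 windows of the ATF4 target list (17.4%).

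Marker lists of other cells differed in level as well. All 4 tested erythroid markers had a positive difference (median 0.65), with a median deviation of 0.39 to 1.06 on the anthraquinone arrays against -0.11 to 0.19 on the corn oil arrays, lowest in the anthraquinone group on replicate 3. All 5 principal cell markers had a negative one (median -0.46), with -0.60 to -0.16 on the anthraquinone arrays against -0.18 to 0.13 on the corn oil arrays. The 15 interferon response genes, a list set beside Wars1, had a median of -0.27. At an unadjusted limma p under 0.05, 3 were lower (20%, against 7.65% of all entries) and 0 higher (against 9.47%). The 3 were Isg15 (-0.55), Mx1 (-0.40) and Tap1 (-0.27). In a bulk sample fewer cells of a type and less RNA per cell cannot be told apart, and the part of these shifts in the synthetase values was not tested.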

How the data were processed

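Per the file headers, the deposited intensity of each spot is linear and comes from Agilent Feature Extraction 10.7.1.1, given as 10.7 in the submitters' processing notes. That program had subtracted background from the processed intensity, as the deposited files' headers state. The authors' value table held the same intensity divided by each array's 75th percentile: for 90.7 to 97.0% of probes a single factor per array held to 0.01 log2. Its column medians were 0.109, 0.111 and 0.110 for anthraquinone and 0.109, 0.113 and 0.114 for corn oil replicates 1 to 3. Its scale matched the scanner values and no centring by gene was seen.

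From each array, log2 processed intensity minus its 75th percentile over 61657 non-control probes was taken. A probe was kept if every array of 1 or both groups had it well above background (41310). Names came from accessions matched without version to a RefSeq table of GRCr8, which named 27460 probes. The array's design is of an older build, so none of its coordinates were used. A gene was its brightest probe. The fit was limma 3.58.1 in R 4.3.3 (lmFit and eBayes, group only), with Benjamini-Hochberg adjustment over 32663 entries, of which 11831 had a symbol, and it was tested on simulated data. An exact permutation of 3 against 3 cannot go below p = 0.1, so none was used. Groups came from the sample titles.

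All 35 genes are named. Those with non-overlapping groups and an unadjusted p under 0.05 have the value on every array, and the rest their difference, with every passing probe. Of other lists, up to 4 genes with the largest absolute difference at an unadjusted p under 0.05 are named, or the largest where none, and Atf4, Eif2ak4, Asns and Trib3 in any case. Mars1, Sars1, Wars1, Wars2 and Tars1 are described further because of their probes or promoters. Members and lists were chosen with earlier results of these data known. The alternatives were 14 other settings and leaving out each of the 6 arrays. The results of 2 marker lists are not reported here.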

Additional observations from a re-analysis of the deposited data

How the results depend on the processing

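No synthetase passed an adjusted limma p of 0.05 under any of the 20 alternatives, and the lowest adjusted p reached was 0.0960 (Farsa). The number of 31 at an unadjusted limma p under 0.05, 9 as reported, was 5 with quantile normalization and 5 when the probes of a gene were averaged (4 higher and 1 lower, where all 9 were higher). It was 5 with the slide as a block and 0 with the row on the slide as a term. The share of all entries at that p, 17.1% as reported, was 14.5, 17.2, 14.2 and 11.1% in the same order. Where 5 of 31 were called, the synthetases were thus called about as often as all entries. The number was 2 to 9 when 1 array was left out (12.4 to 18.4% of all entries), lowest with corn oil replicate 2 left out. It was 3 when the third animal of either group was left out. The number with non-overlapping groups, 17, was 11 with normexp background correction, run on median spot signals, and 17 to 20 when 1 array was left out, of which 17 to 19 were higher and up to 2 lower. With the mean or the median of the probes 12 were higher and 3 lower. The cytosolic median of 0.26 lay between 0.20 and 0.29 under other settings and between 0.15 (without anthraquinone replicate 3) and 0.33 when 1 array was left out. The mitochondrial median of 0.13 was 0.16 with median scaling, 0.0804 with quantile normalization, 0.0524 with normexp, 0.0012 with the mean or the median of the probes and 0.0628 with the row term. When 1 array was left out it was -0.0047 (without anthraquinone replicate 1) to 0.13. The cytosolic minus the mitochondrial median, 0.13, was 0.0522 to 0.29 when 1 array was left out. The row term leaves corn oil replicate 1 as the only corn oil array in the row of the anthraquinone arrays. The slide block equals leaving that array out, with a cytosolic median of 0.28 within the shared slide. On that slide, row and group cannot be told apart.

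Of 620 single-gene values 592 kept their sign and 28 reversed, in 8 genes. Hars1 was 0.00088 with median scaling and -0.0769 to 0.0187 when 1 array was left out, positive without anthraquinone replicate 3. Kars1 was -0.0184 with quantile normalization, -0.0354 with normexp, -0.0038 with the median of the probes, -0.0127 with the slide block and -0.0127 to 0.0566 when 1 array was left out, negative without corn oil replicate 1 or anthraquinone replicate 2 (-0.0054). Qars1 was -0.0151 with quantile normalization and -0.0086 with normexp, and Tars1 was -0.0189 with the row term. Fars2 was 0.0283 with median scaling, 0.0184 with array weights, 0.0087 with the slide block and -0.0276 to 0.0333 when 1 array was left out. Pars2 was 0.0156 with the slide block and -0.12 to 0.0156 when 1 array was left out. Wars2 was -0.0021 with the mean or the median of the probes and -0.0770 to 0.38 when 1 array was left out, lowest without anthraquinone replicate 1. Yars2 was -0.0142 with normexp, -0.0181 with array weights, -0.0218 with the slide block and -0.0218 to 0.0306 when 1 array was left out. The cause was not tested.

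Replicate numbers did not pair the animals: deviations from the group means of same-numbered arrays correlated at 0.03, -0.06 and -0.0074. With a replicate block, 0 synthetases passed the adjusted limma test and 7 of 31 had an unadjusted p under 0.05, where 14.2% of all entries had one. Over all entries 9 passed as reported. That count was 16 with normexp, 58 with an intensity trend, 6611 of 49481 without a filter on dim probes, 2 with the slide block, 1 with the row term and 1 with the replicate block. When 1 array was left out it was 1 to 25, lowest when anthraquinone replicate 1 or 2 or corn oil replicate 2 was dropped and highest without corn oil replicate 3.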

Other observations

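Further marker lists of renal cortex had the following values, each as a median difference on the log2 scale, anthraquinone minus corn oil. The thick ascending limb list had -0.27 over 4 genes, all negative, with Kcnj1, a potassium channel, at -0.33. The distal convoluted tubule list had -0.50 over 2 genes, with Calb1, a calcium-binding protein, at -0.62. The macrophage list had -0.25 over 4 genes, with Csf1r at -0.23. Lists of intercalated cells, endothelium and fibroblasts with mesangium had 0.01, 0.01 and -0.01 over 5 genes each, with Slc4a1, an anion exchanger, at 0.35, Tek at 0.25 and Pdgfrb at 0.36. Of the proximal tubule markers, Lrp2, the endocytic receptor megalin, had the largest difference, at -0.20. Of the principal cell markers, Scnn1b and Scnn1g, subunits of the sodium channel, had -0.72 and -0.46, and Hsd11b2 had -0.49. Of the erythroid markers, Alas2, the first enzyme of erythroid heme synthesis, had 0.86, Hbb 0.66 and Slc4a1, shared with intercalated cells, 0.35. None of these genes passed the adjusted limma test.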
